A study of Mus musculus with 10 samples.

Results

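The transcripts described here are 10 genes that stood higher in B7hi than in B7low mast cells with saline, with house dust mite extract (HDM), or with both: Eya2, Clic4, Gyk, Eltd1, Ms4a4b, Tnfrsf9, Pdgfrb, Fgl2, Raver2 and Galm. They are 10 of the 22815 gene symbols in the count table, and all 10 had enough counts to be tested. They were chosen from the measured levels of these same libraries, so every difference between B7hi and B7low given for them is a description without a test. Wild-type C57BL/6 mice of 5 to 7 weeks received 20 µL of saline intranasally, with or without 3 µg of HDM, a common inhaled allergen, 2 times a week for 3 weeks, and mast cells were then sorted by flow cytometry from the lower airway. The 4 groups were B7hi cells after HDM (n = 3), B7low cells after HDM (n = 3), B7hi cells after saline (n = 2) and B7low cells after saline (n = 2). The labels do not say whether libraries of 1 group came from separate animals or from pools, so the spread between them may be technical.

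Mast cells are granule-filled immune cells that carry the stem cell factor receptor Kit and the high-affinity IgE receptor. Those that live constitutively in connective tissue are long-lived and rich in granule proteases, whereas those that appear in inflamed airway mucosa arise from recruited progenitors, which enter the lung with the help of the integrin chain beta 7. The labels give B7 only as a cell marker. In published work on airway mast cells it denotes that integrin chain. Itgb7 mRNA was present in every library, at 341 to 861 CPM in B7hi HDM, 550.3 to 919 CPM in B7low HDM, 681 to 1011 CPM in B7hi saline and 570.2 to 603 CPM in B7low saline. CPM relates a count to the TMM-scaled total of the tested genes in its library and takes no account of transcript length.

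Library totals ran from 525983 to 1725818 counts, with 652736 and 639906 in B7low saline. A count of 0 allows up to 3 counts, which is 1.57 to 5.87 CPM for 1 library and 2.56 CPM over the B7low saline group. All 16 mast cell markers had counts in every library, and their summed level was 22493 to 36701 CPM in B7hi HDM, 59378 to 83891 CPM in B7low HDM, 16095 to 19110 CPM in B7hi saline and 67011 to 114700 CPM in B7low saline. B7hi HDM replicate 2 and B7low saline replicate 2 stood apart on the second principal component (18.4% of the variance), and both had high Kcnq1ot1, a nuclear noncoding RNA, at 12133 and 6956 CPM (806 to 2794 CPM elsewhere). On the first component (33.3% of the variance) the B7hi libraries lay between -50.7 and -27.3, the B7low HDM libraries at 45.0, 15 and 15.4, and the B7low saline libraries at 65.1 and 64.8.

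The 10 genes code for proteins of unlike kinds. Eya2 is a transcriptional coactivator with phosphatase activity that works with DNA-binding proteins, Clic4 a chloride intracellular channel protein, Gyk (now Gk) the glycerol kinase that starts glycerol use, and Galm the galactose mutarotase that feeds galactose into the Leloir pathway. Eltd1 (now Adgrl4) is an adhesion G protein-coupled receptor best known from endothelium, and Ms4a4b a 4-transmembrane protein of the MS4A family best known from T cells. Tnfrsf9 (4-1BB, CD137) is a costimulatory receptor of the TNF receptor superfamily, Pdgfrb the beta receptor for platelet-derived growth factor, Fgl2 a fibrinogen-like protein with a membrane prothrombinase form and a secreted immunoregulatory form, and Raver2 an RNA-binding partner of the splicing repressor PTB. On GRCm38 (GENCODE M21, 1-based), Eya2 lies at chr2:165595032-165771727 (+), Clic4 at chr4:135213969-135272814 (-), Gyk at chrX:85701937-85776819 (-), Eltd1 at chr3:151437887-151545086 (+) and Ms4a4b at chr19:11443553-11467055 (+). Tnfrsf9 lies at chr4:150914562-150946102 (+), Fgl2 at chr5:21372642-21378374 (+), Raver2 at chr4:101068983-101152370 (+) and Galm at chr17:80127471-80185101 (+). The position of Pdgfrb is given with its values, and all 10 are annotated as protein coding.

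RefSeq (GRCm38.p6) gave the 250 bases before a transcription start for 7 of the 10 genes, and 5 of these windows are shown: 3 genes that moved together across the libraries (Clic4, Gyk and Eltd1) and 2 that stayed higher in B7hi with HDM (Fgl2 and Tnfrsf9, at its second annotated start). Capitals mark matches on either strand to motifs of 4 factor families active in mast cells: the GATA family (letters AGATAA or TGATAA, and also AGATAG or TGATAG), the MITF E-box (CACGTG or CATGTG), AP-1 (TGANTCA) and RUNX (TGTGGT or TGCGGT). Their coordinates are chr4:135272761-135273010 (-) for Clic4, chrX:85776820-85777069 (-) for Gyk, chr3:151437632-151437881 (+) for Eltd1, chr5:21372423-21372672 (+) for Fgl2 and chr4:150927749-150927998 (+) for Tnfrsf9.
Clic4: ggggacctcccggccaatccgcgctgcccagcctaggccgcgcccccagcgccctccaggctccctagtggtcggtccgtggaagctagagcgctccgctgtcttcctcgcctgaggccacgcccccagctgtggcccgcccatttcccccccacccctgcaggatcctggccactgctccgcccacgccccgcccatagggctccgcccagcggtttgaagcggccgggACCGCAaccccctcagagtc
Gyk: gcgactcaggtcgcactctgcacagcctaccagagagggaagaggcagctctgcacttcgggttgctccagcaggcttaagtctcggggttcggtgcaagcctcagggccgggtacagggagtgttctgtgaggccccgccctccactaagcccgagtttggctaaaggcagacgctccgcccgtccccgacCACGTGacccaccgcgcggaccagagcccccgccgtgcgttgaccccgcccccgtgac
Eltd1: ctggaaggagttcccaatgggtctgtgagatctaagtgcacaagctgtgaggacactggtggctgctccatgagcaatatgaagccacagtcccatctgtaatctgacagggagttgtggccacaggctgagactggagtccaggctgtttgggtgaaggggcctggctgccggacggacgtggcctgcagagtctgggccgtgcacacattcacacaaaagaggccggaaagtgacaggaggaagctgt
Fgl2: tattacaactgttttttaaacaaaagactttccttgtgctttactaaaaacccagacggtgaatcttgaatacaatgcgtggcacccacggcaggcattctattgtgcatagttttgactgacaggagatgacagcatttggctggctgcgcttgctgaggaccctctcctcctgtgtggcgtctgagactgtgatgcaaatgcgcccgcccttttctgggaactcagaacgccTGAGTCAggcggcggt
Tnfrsf9: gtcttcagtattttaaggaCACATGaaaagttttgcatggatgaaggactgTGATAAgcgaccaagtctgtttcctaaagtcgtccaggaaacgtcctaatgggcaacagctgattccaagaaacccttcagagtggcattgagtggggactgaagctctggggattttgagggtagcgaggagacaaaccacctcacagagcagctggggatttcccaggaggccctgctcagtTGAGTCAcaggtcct
The Clic4 window held 1 RUNX match (ACCGCA, starting 20 bases before the start site), and RUNX letters occurred in 18.6% of all 32851 promoters of the same length. The Gyk window held 1 E-box at -58, against 17.6% of all promoters with one. The Fgl2 window and the second Tnfrsf9 window each held the AP-1 letters TGAGTCA near the start, at -16 and -15, and 6.75% of all promoters held an AP-1 match. The Tnfrsf9 window also held an E-box at -231 (CACATG) and a GATA match at -199 (TGATAA), and 26.5% of all promoters held a GATA match. None of these matches overlapped another. No listed motif was found in the windows of Eltd1, Ms4a4b, Raver2 or the first Tnfrsf9 start. The base composition ranged from 34.4% GC in Ms4a4b to 74.0% in Raver2, around a median of 52.4% for all promoters, so Clic4, Gyk and Eltd1 shared neither a listed motif nor one base composition (73.2%, 67.2% and 56.8% GC).

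Eya2, Clic4, Gyk, Eltd1 and Ms4a4b had almost no counts in B7low cells after saline: 1 count of Eya2 and none of the other 4 over both libraries. Of these 5, Eya2, Clic4, Gyk and Eltd1 had counts in all 3 B7low HDM libraries, between 8.46 and 55.6 CPM, and Ms4a4b did not.

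Eya2 was at 65.0, 76.3 and 42.5 CPM in B7hi HDM (replicates 1 to 3) and at 20.3, 11.1 and 55.0 CPM in B7low HDM. After saline it was at 77.1 and 72.6 CPM in B7hi, against 1.75 and 0 CPM in B7low. The transcript was high in all 5 B7hi libraries, absent or at a single count in B7low saline, and present in all 3 B7low HDM libraries, of which replicate 3 exceeded the lowest B7hi HDM library. Pooled over libraries, Eya2 was 1.86-fold higher in B7hi than in B7low with HDM (95% counting interval 1.48 to 2.35) and 87.1-fold higher with saline (15.5 to 3453, from 241 against 1 count). The fitted log2 ratio with HDM, 1.04, was 2.00 without B7low HDM replicate 3 and 0.64 without B7low HDM replicate 2. Such intervals and floors cover counting error only and not the spread between libraries.

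Clic4 was at 32.5, 43.1 and 50.0 CPM in B7hi HDM and at 21.7, 22.8 and 19.0 CPM in B7low HDM. With saline its level was 31.0 and 29.8 CPM in B7hi, against 0 CPM in both B7low libraries. It was the only one of these 5 genes for which every B7hi HDM library stood above every B7low HDM library, by a pooled 1.96-fold (1.48 to 2.60). With saline the B7hi level was at least 11.8-fold higher, taking 3 counts over the B7low group as the limit.

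Gyk was at 10, 21.5 and 23.3 CPM in B7hi HDM and at 20.3, 13 and 18.3 CPM in B7low HDM. In saline controls it reached 26.5 and 26.6 CPM in B7hi, against 0 CPM in both B7low libraries. With HDM the populations overlapped, with a pooled ratio of 1.03 (0.713 to 1.49), whereas with saline B7hi was at least 10.4-fold higher. Every B7hi HDM library was below both B7hi saline libraries.

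Eltd1 was at 15, 35.2 and 19.9 CPM in B7hi HDM and at 55.6, 8.46 and 41.7 CPM in B7low HDM. After saline, the gene stood at 31.7 and 20.9 CPM in B7hi, against 0 CPM in both B7low libraries. It was the 1 gene of the 10 whose pooled level with HDM was lower in B7hi than in B7low, with a ratio of 0.639 (0.470 to 0.864), although the libraries overlapped because B7low HDM replicate 2 was the lowest of the 6. The fitted log2 ratio, -0.63, was -0.17 without B7low HDM replicate 1 and -1.11 without replicate 2. With saline B7hi was at least 9.87-fold higher.

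Endothelial markers, which belong to the cell type best known for Eltd1, also varied among the B7low HDM libraries. Their summed level over 15 markers was 139 to 174 CPM in B7hi HDM, 805, 226 and 119 CPM in B7low HDM, 159 and 137 CPM in B7hi saline, and 69.9 and 194 CPM in B7low saline. Pecam1 alone made up most of the sum in every library but B7low HDM replicate 1. It was at 108 to 150 CPM in B7hi HDM and at 171, 142 and 95.4 CPM in B7low HDM. In B7low HDM replicate 1, none of the 15 was at 0, with Cldn5 at 165 CPM, Plvap at 109.8 CPM, Esam at 82.7 CPM and Tek at 54.2 CPM. None was at 0 in B7low HDM replicate 2 either, where Eltd1 was at 8.46 CPM. In B7low HDM replicate 3, 8 of the 15 were at 0 (Cdh5, Emcn, Kdr, Plvap, Ramp2, Sox17, Tek and Tie1) while Eltd1 was at 41.7 CPM. In the B7hi libraries 3 to 9 of the 15 were at 0, with Eltd1 at 15 to 35.2 CPM. The part of endothelial cells in the Eltd1 counts was not tested.

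Ms4a4b was at 3.13, 9.79 and 6.16 CPM in B7hi HDM and at 4.07, 0 and 2.53 CPM in B7low HDM. Saline libraries had it at 15.1 and 30.8 CPM in B7hi, against 0 CPM in both B7low libraries. B7low HDM held 7 counts in all, 1.81 CPM when pooled, which is under the 2.56 CPM that a count of 0 allows in B7low saline, so no fold is given for HDM in B7low cells. In B7hi cells all 3 HDM libraries were below both saline libraries, and the pooled ratio was 0.218 (0.125 to 0.363). Among transcript stretches of 25 bases, the read length, 8.07% of those of Ms4a4b also occurred in other genes, 3.13% in Ms4a4c and 1.47% in Ms4a2. Ms4a4c had 0 to 2 counts in every B7hi library, whereas Ms4a2, the beta chain of the high-affinity IgE receptor, was at 640.4 to 1130 CPM over all libraries. How reads from such stretches were counted is not given in the sources used here, so the low Ms4a4b values are uncertain.

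Markers of T and NK cells, the cells best known for Ms4a4b, summed over 17 genes to 510.0, 481 and 1036 CPM in B7hi HDM, 272, 256 and 368 CPM in B7low HDM, 955 and 1057 CPM in B7hi saline, and 292 and 266 CPM in B7low saline. The defining genes did not move with that sum in every library. B7hi saline replicate 1 had Cd3e and Cd3g at 0 and Lck at 1.51 CPM, with Ms4a4b at 15.1 CPM, whereas B7hi saline replicate 2 had Cd3g at 37.1 CPM and Lck at 86.1 CPM, with Ms4a4b at 30.8 CPM. In B7hi HDM replicate 3, Cd3g was at 29.5 CPM and Lck at 58.2 CPM, with Ms4a4b at 6.16 CPM. In bulk libraries fewer cells of a type and less RNA per cell cannot be told apart.

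**Figure D1:**
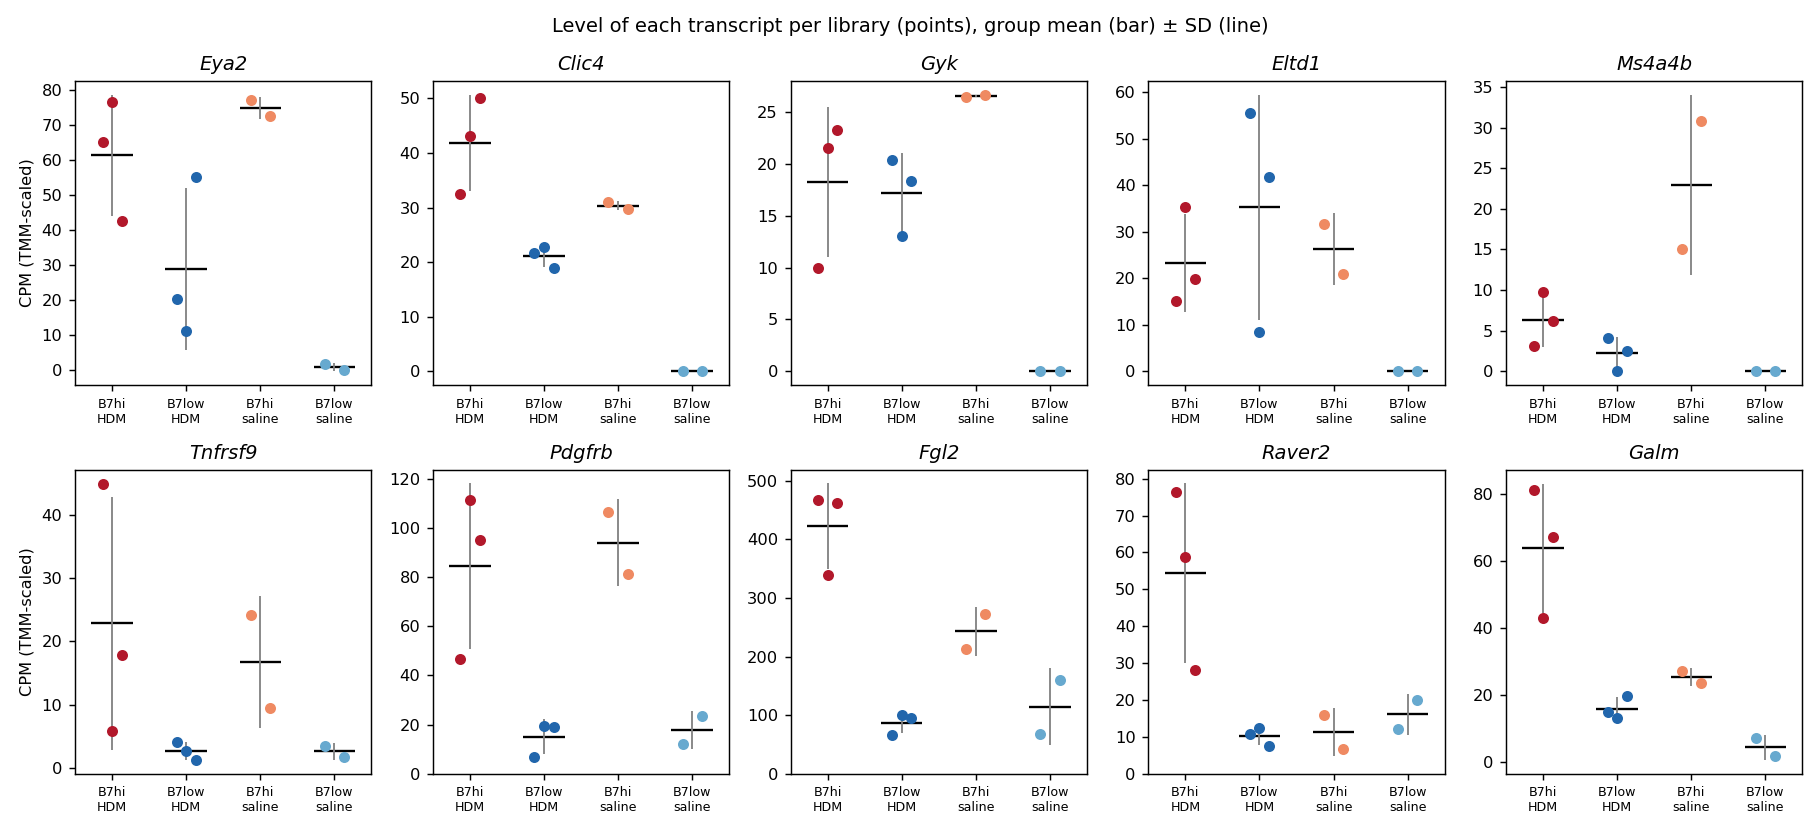
CPM of each of the 10 transcripts in every library, with points for libraries, bars for group means and lines for the SD, each panel on its own linear scale, in the order B7hi HDM, B7low HDM, B7hi saline and B7low saline. Clic4, Gyk and Eltd1 have no counts in either B7low saline library and 8.46 to 55.6 CPM in the B7low HDM libraries, while Pdgfrb, Fgl2 and Tnfrsf9 stay in one low range in both B7low groups.

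The effect of HDM within a population was not used to pick the genes, but it shares the libraries they were picked on, and genes picked for low B7low saline values start low there, as genes picked for high B7hi values stand high in those libraries. Counts of the 10 genes that moved with HDM are therefore descriptions, in both populations. In B7low cells, 5 of the 10 genes (Eya2, Clic4, Gyk, Eltd1 and Galm) were higher in all 3 HDM libraries than in both saline libraries, none was lower in all, and 5 overlapped. Among all 10533 tested genes, 13.2% were higher without overlap and 10.7% lower. Pooled, Eya2 was 36.1-fold higher with HDM than with saline (6.35 to 1437, from 119 against 1 count), Eltd1 at least 12.1-fold, Clic4 at least 8.19-fold and Gyk at least 6.47-fold. The median fold over the 9 genes with a fold, 3 of them entered at their lower bound, was 3.76, or 1.91 on the log2 scale, beside a median of 0.03 for the fitted log2 fold changes of all tested genes.

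None of the 10 passed edgeR's quasi-likelihood test for HDM in B7low cells with Benjamini-Hochberg adjustment over all tested genes. Clic4 came nearest, with an adjusted p of 0.053, followed by Gyk (0.10), Eltd1 (0.18), Eya2 (0.19) and Galm (0.42). Only 1 gene, 0.00949% of those tested, was called at all: Il6, named here after its value was seen, with a log2 fold change of 2.40 and an adjusted p of 0.041. At an unadjusted p under 0.05 stood 5 of the 10 genes, against 956 of all 10533 (9.08%). Nothing is read from that count or from the calls of other tools, since the B7low libraries helped to choose the genes. DESeq2 called 2 of the 9 to which it gave an adjusted p, Clic4 (0.046) and Eltd1 (0.027), against 19 of all genes with one (0.209%), and limma-voom called none of the 10 and 0% of all genes. The call for Clic4 was also made with library size alone as the scaling (0.035), with genes kept from 5 CPM in 2 libraries upward (0.046) and with no count filter (0.00012), and that for Eltd1 with B7low HDM replicate 2 left out (0.045) and with no count filter (4.0e-06). Over all genes those settings called 0.038%, 0.0262%, 0.566% (no count filter) and 0.0298% (without that library). Over all alternatives the adjusted p ran from 0.00012 to 0.95 for Clic4 and from 4.0e-06 to 0.95 for Eltd1.

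Other genes that B7low saline cells lacked also had counts in B7low HDM. Among all tested genes, 264 had at most 1 count over B7low saline and counts in both B7hi saline libraries, and 176 of them (66.7%) had counts in all 3 B7low HDM libraries. With a mean of at least 20 CPM in B7hi saline, 22 genes were left, 5 of them Eya2, Clic4, Gyk, Eltd1 and Ms4a4b, and 14 of the 22 (63.6%) had counts in all 3 B7low HDM libraries. Over the 22, the mean level in B7low HDM had a median of 10.1 CPM and ranged from 0 to 35.2 CPM. Eltd1 (35.2 CPM) and Eya2 (28.8 CPM) had the highest means, Clic4 (21.1 CPM) and Gyk (17.2 CPM) were among the 9 above 15 CPM, and Ms4a4b was at 2.2 CPM. These 22 were selected on the same B7low saline libraries, which hold 2 of the 3 lowest totals, and the share gained was not tested.

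**Figure D2:**
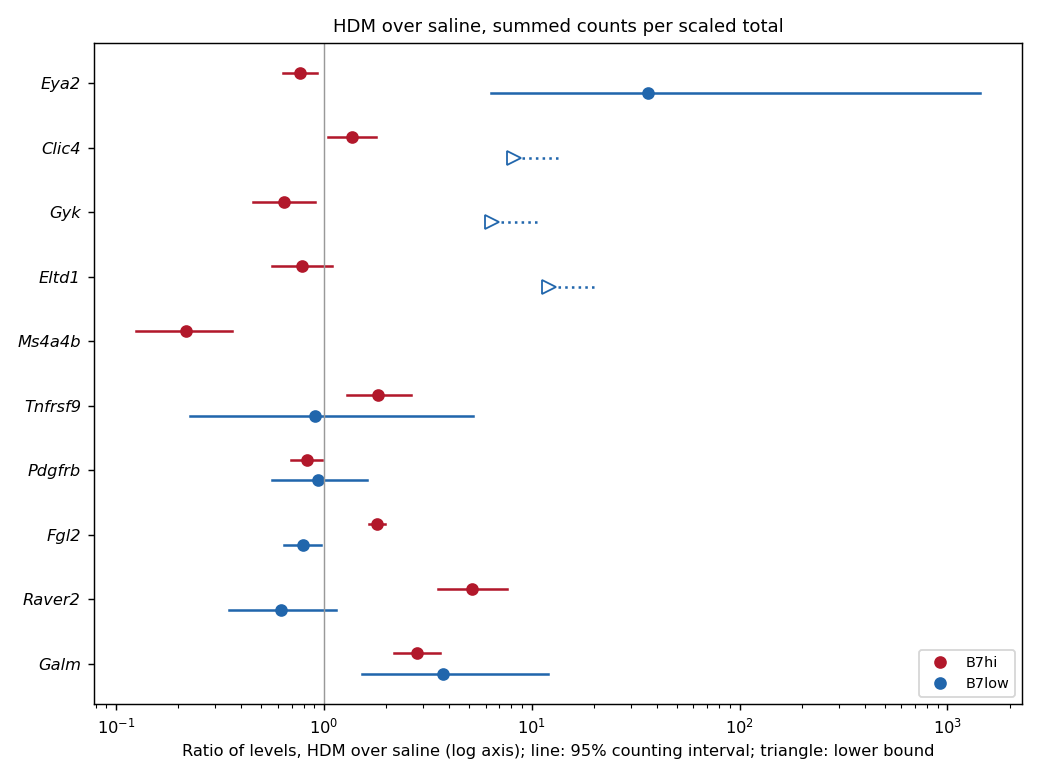
Pooled ratio of HDM to saline for each transcript in B7hi and in B7low cells on a log axis, with 95% counting intervals, and triangles for lower bounds where B7low saline had no counts. In B7low cells Eya2, Clic4, Gyk, Eltd1 and Galm lie above 1 and the intervals of Tnfrsf9, Pdgfrb and Raver2 span 1, while in B7hi cells Raver2 (5.15) and Galm (2.80) lie highest and Ms4a4b (0.218) lowest.

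Tnfrsf9, Pdgfrb, Fgl2, Raver2 and Galm had counts in both B7low saline libraries, and with HDM each of them was higher in every B7hi library than in every B7low library. Including Clic4, 6 of the 10 genes were higher without overlap with HDM and 4 overlapped, and with saline 9 were higher and 1, Raver2, overlapped. Among all tested genes 9.76% were higher in B7hi without overlap with HDM and 28.5% with saline, and since the genes were picked on these differences nothing is read from their counts.

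Tnfrsf9, whose signal sustains activated lymphocytes, was at 45.0, 5.87 and 17.8 CPM in B7hi HDM and at 4.07, 2.60 and 1.26 CPM in B7low HDM. With saline it stood at 24.2 and 9.40 CPM in B7hi, against 3.5 and 1.67 CPM in B7low. The B7low libraries held 1 to 4 counts each, near the floor, and B7hi HDM replicate 2, the shallowest library, rested on 3 counts. The pooled level in B7hi was 12.1-fold higher with HDM (6.14 to 27.3) and 6.02-fold higher with saline (1.95 to 30.2). B7hi HDM replicate 1, the highest library, had the T cell genes Cd3e at 1.88 CPM, Cd3g at 0.625 CPM and Lck at 2.5 CPM. The fitted log2 ratio with HDM was 3.24, and 2.29 without that library. Which cells gave the Tnfrsf9 counts was not tested. Its ligand Tnfsf9 was at 0 to 9.38 CPM and too low to be tested. Traf1, an adaptor of this receptor, averaged 12.1 ± 4.94 CPM in B7hi HDM and 1.54 ± 1.63 CPM in B7low HDM (SD, n = 3 each), with an adjusted p of 0.11 in edgeR.

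Pdgfrb, known mainly from pericytes and fibroblasts, lies at chr18:61045150-61085061 (+). It was at 46.9, 112 and 95.2 CPM in B7hi HDM and at 6.78, 19.5 and 19.0 CPM in B7low HDM. After saline its level was 107 and 81.4 CPM in B7hi, against 12.2 and 23.4 CPM in B7low. Neither population overlapped the other under either challenge, and the ratio was nearly the same, 4.50 with HDM (3.42 to 6.00) and 5.11 with saline (3.28 to 8.38). Within a population HDM libraries overlapped saline libraries, with ratios of 0.828 in B7hi (0.699 to 0.979) and 0.939 in B7low (0.566 to 1.62). Without B7low saline replicate 2 the fitted log2 change in B7low was 0.39.

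The genes that mark Pdgfrb-bearing stromal cells were scarce. Pericyte, smooth muscle and fibroblast markers summed over 17 genes to 5.00 to 31.3 CPM in B7hi HDM, 10.8 to 28.4 CPM in B7low HDM, 8.35 to 9.82 CPM in B7hi saline and 14 to 55.2 CPM in B7low saline, with Kcnj8 and Dpt at 0 in every library. Such a sum does not show which cells the Pdgfrb counts came from, and this was not tested. The other receptor, Pdgfra, had 15 counts in all 10 libraries, the ligand Pdgfb had 1, and Pdgfa reached 26.2 CPM in 1 B7low saline library and was at or under 6.50 CPM elsewhere. None of the other 6 PDGF ligand and receptor genes in the table had enough counts to be tested.

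**Figure D3:**
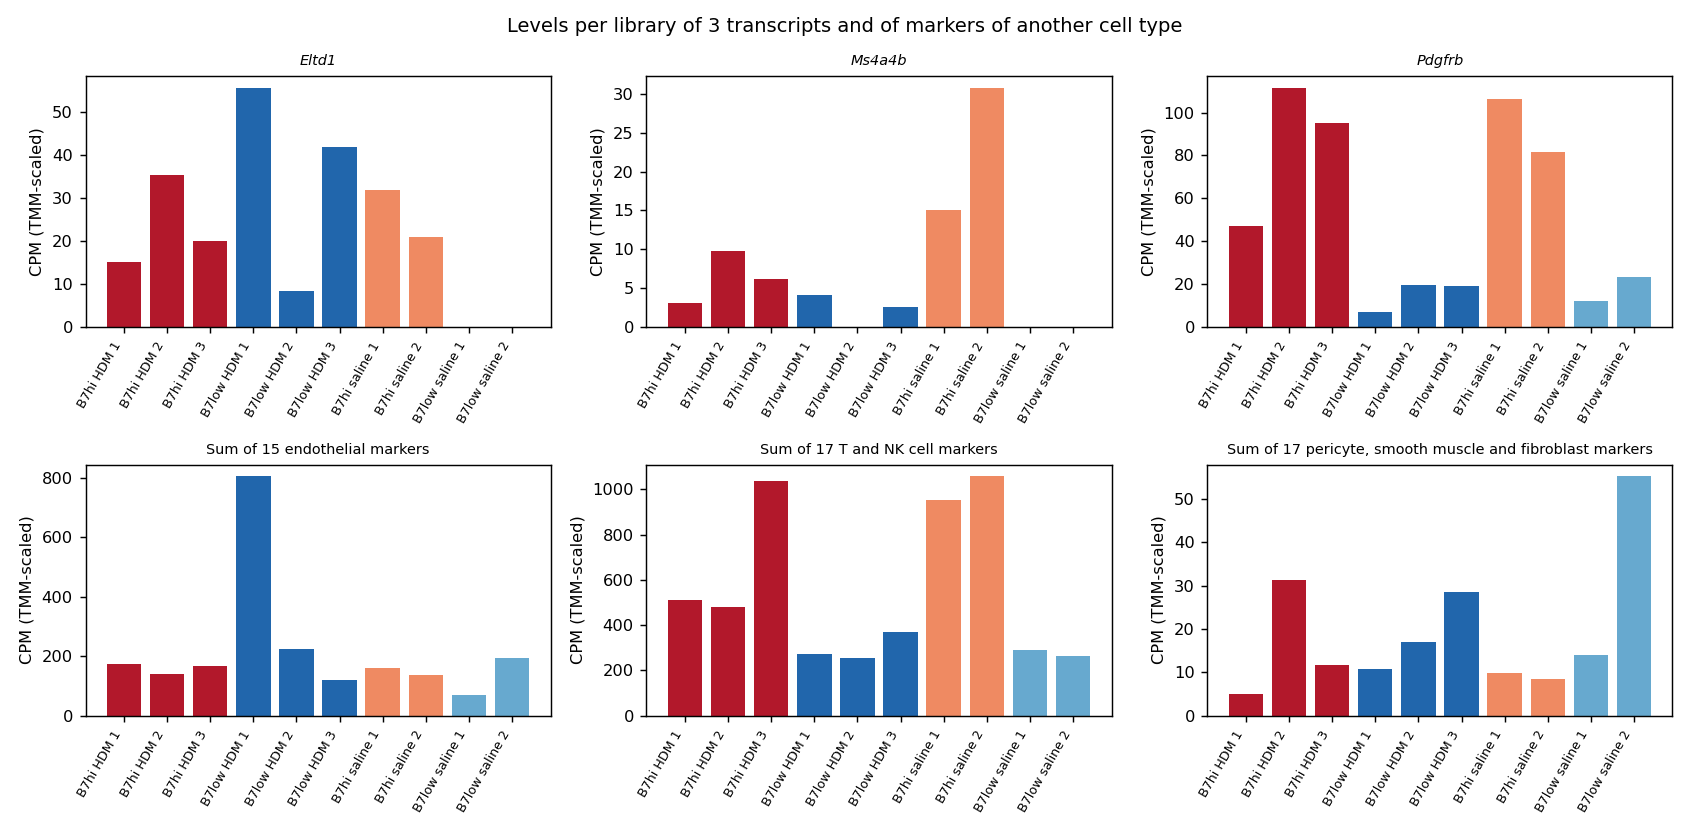
CPM of Eltd1, Ms4a4b and Pdgfrb in each of the 10 libraries (upper bars, from 0) above the summed CPM of endothelial, T and NK cell, and stromal markers in the same libraries (lower bars), in the order B7hi HDM, B7low HDM, B7hi saline and B7low saline. The endothelial sum is highest in B7low HDM replicate 1 (805 CPM), the T and NK cell sum in B7hi saline replicate 2 (1057 CPM) and B7hi HDM replicate 3 (1036 CPM), and the stromal sum in a B7low saline library (55.2 CPM) where Pdgfrb is at 23.4 CPM.

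Fgl2 was the most abundant of the 10, at 468, 339 and 463 CPM in B7hi HDM and at 66.4, 99.5 and 94.8 CPM in B7low HDM. The saline values were 213 and 273 CPM in B7hi, against 68.2 and 160.5 CPM in B7low. The 3 B7hi HDM libraries stood above all other libraries, and with saline the populations lay closer. The pooled ratio of B7hi to B7low was 4.90 with HDM (4.37 to 5.52) and 2.15 with saline (1.79 to 2.60). The saline value depended on both B7low saline libraries: the fitted log2 ratio, 1.08, was 1.85 without replicate 2 and 0.64 without replicate 1. In B7low cells the fitted log2 change with HDM was -0.39, and 0.37 without B7low saline replicate 2. Markers of macrophages and dendritic cells, which also make Fgl2, summed over 14 genes to 40.6 to 99.8 CPM in B7hi HDM and 36.4 to 79.97 CPM in B7low HDM. After saline they summed to 52.1 to 68.9 CPM in B7hi and 17.5 to 43.5 CPM in B7low. Which cells the Fgl2 counts came from was not tested.

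Raver2 was at 76.3, 58.7 and 28.1 CPM in B7hi HDM and at 10.8, 12.4 and 7.58 CPM in B7low HDM. In the saline groups it was at 15.9 and 6.79 CPM in B7hi, against 12.2 and 20.1 CPM in B7low. With HDM it was 5.35-fold higher in B7hi (3.77 to 7.75), and with saline the ratio was 0.646 (0.358 to 1.20) and the libraries overlapped. Its last exon shares 4 bases with Jak1 on the opposite strand, which the counting may not have told apart.

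Galm was at 81.3, 43.1 and 67.1 CPM in B7hi HDM and at 14.9, 13 and 19.6 CPM in B7low HDM. With saline the level was 27.2 and 23.5 CPM in B7hi, against 6.99 and 1.67 CPM in B7low. No groups overlapped in any of these 4 comparisons, and the order was B7hi HDM, B7hi saline, B7low HDM and B7low saline. The ratio of B7hi to B7low was 4.36 with HDM (3.29 to 5.85) and 5.85 with saline (2.41 to 18.5). The B7low saline values rested on 4 and 1 counts, and the fitted log2 change with HDM in B7low, 1.87, was 1.19 without replicate 2 and 3.22 without replicate 1 of that group.

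**Figure D4:**
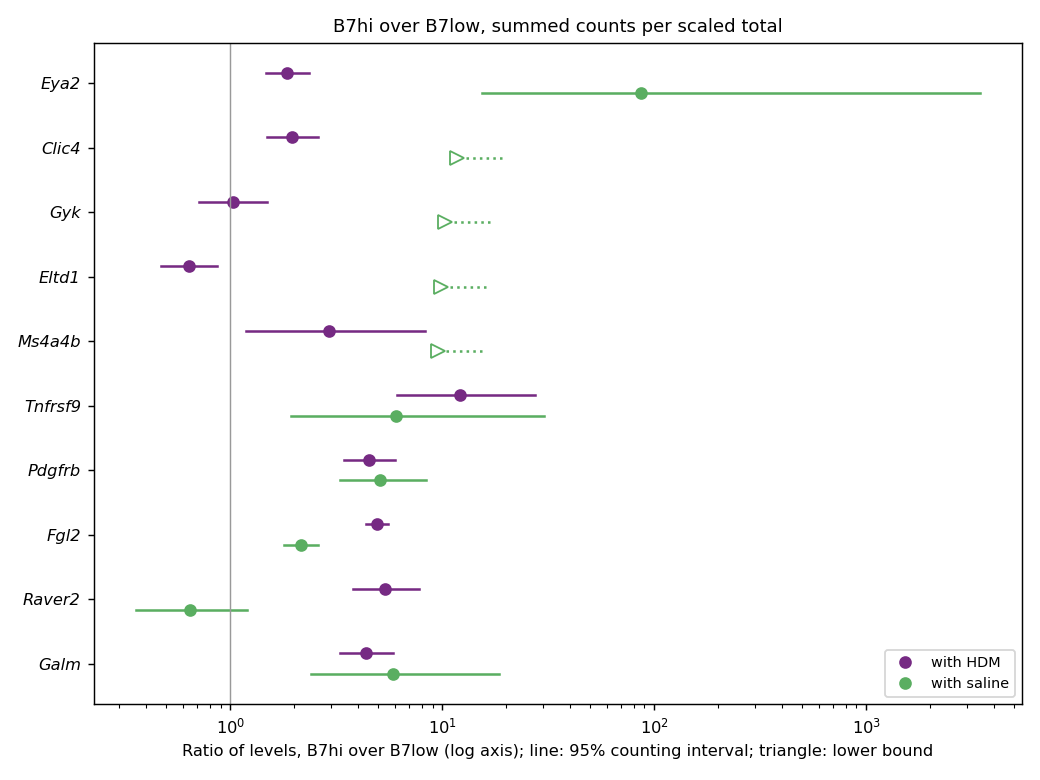
Pooled ratio of B7hi to B7low for each transcript with HDM and with saline on a log axis, with 95% counting intervals, and triangles for lower bounds where B7low saline had no counts. With HDM the ratios of Eya2, Clic4, Gyk and Eltd1 lie between 0.639 and 1.96, far below those with saline, while Pdgfrb is at 4.50 with HDM and 5.11 with saline, and Raver2 at 5.35 with HDM and 0.646 with saline.

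In B7hi cells, 4 of the 10 genes (Clic4, Fgl2, Raver2 and Galm) were higher in all 3 HDM libraries than in both saline libraries, 2 (Gyk and Ms4a4b) were lower in all, and 4 overlapped. Among all tested genes 10.2% were higher without overlap and 10.4% lower. Raver2 showed the largest pooled ratio of HDM to saline, 5.15 (3.56 to 7.65), followed by Galm with 2.80 (2.17 to 3.64), Tnfrsf9, whose libraries overlapped, with 1.83 (1.29 to 2.63), Fgl2 with 1.80 (1.66 to 1.96) and Clic4 with 1.36 (1.05 to 1.78). Gyk was at 0.643 (0.456 to 0.904). The median over the 10 genes was 1.09-fold, or 0.09 on the log2 scale, beside 0.02 for the fitted log2 fold changes of all tested genes.

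None of the 10 passed edgeR's test for HDM in B7hi cells. Raver2 had a log2 fold change of 2.28 ± 0.55 (approximate SE, n = 3 and 2) and an adjusted p of 0.24 (0.00074 before adjustment), and Galm had 1.36 ± 0.43 and 0.69. The other 8 had adjusted p-values near 1. Only 1 gene, 0.00949% of those tested, was called: Ecm1, an extracellular matrix protein named here after its value was seen, with a log2 fold change of 2.67 and an adjusted p of 0.026. An unadjusted p under 0.05 was reached by 4 of the 10 genes and by 435 of all tested genes (4.13%). Nothing is read from that count, since the B7hi libraries helped to choose the genes, and Raver2 stood higher in B7hi with HDM alone. DESeq2 called 1 of the 7 to which it gave an adjusted p, Raver2 (0.026), and 0.882% of all genes with one, whereas limma-voom called none of the 10 and 0.104% of all genes. Raver2 was also called with no count filter (0.017), where 0.45% of all genes were. Over all alternatives the adjusted p of Raver2 ran from 0.017 to 1, the highest without either B7hi saline library.

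The difference between the HDM effects, B7hi less B7low, was tested as an interaction in the same fit, and no gene was called in either direction, 0% of those tested, with 901 at an unadjusted p under 0.05. For the 10 genes the lowest adjusted p-values were 0.16 (Clic4 and Gyk), 0.22 (Eya2 and Eltd1) and 0.28 (Raver2), and 7 of the 10 had an unadjusted p under 0.05. DESeq2 called Eltd1 alone (0.023; 5.4e-05 to 0.90 over all alternatives) of the 7 to which it gave an adjusted p, and 0.662% of all genes with one, and limma-voom called none of the 10 and 0% of all genes. With no count filter edgeR called 4 of the 10, Eya2 (adjusted p = 5.1e-05), Clic4 (0.0047), Gyk (0.0026) and Eltd1 (5.4e-05), and 0.723% of all genes. The call thus depended on the filter and the tool, and the interaction, made of the libraries that chose the genes, is no independent test. Gyk was the only one of the 10 that was higher in every B7low HDM library than in B7low saline and lower in every B7hi HDM library than in B7hi saline.

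Other transcripts that separated the populations differed in their change with HDM in B7low cells. The adhesion receptors Gpr56, Gpr97 and Lphn2 and the thrombin receptor F2r averaged 49.0, 118, 14.7 and 88.0 CPM in B7low HDM. Their B7low saline means were 13.6, 59.3, 3.42 and 38.3 CPM, and edgeR called none of these changes. Pgm1, a phosphoglucomutase, averaged 17.3 CPM in B7low HDM against 29.9 CPM in B7low saline. Itgae, the integrin alpha chain that pairs with the beta 7 chain, was at 278 to 534 CPM in B7hi HDM and at 0 to 21.5 CPM in B7low HDM, and after saline at 71.8 to 172 CPM in B7hi, against 0 to 10 CPM in B7low. Itgae, near the floor in both B7low groups, averaged 10.3 ± 10.8 CPM with HDM (SD, n = 3) and 5.02 ± 7.09 CPM with saline (SD, n = 2). Pdgfrb and Fgl2 averaged 15.1 ± 7.20 and 86.9 ± 17.9 CPM in B7low HDM (SD, n = 3). These means were no higher than in B7low saline (17.8 ± 7.90 and 114 ± 65.3 CPM, SD, n = 2). Mast cell markers in the B7low HDM libraries summed to 59378 to 83891 CPM, all above the highest B7hi library (36701 CPM). By edgeR, 9 of these 16 markers were called lower in B7hi with saline and 4 with HDM (3.64% and 2.15% of all tested genes). The sum therefore does not measure the mix of cells. The part that the mix of sorted cells had in the B7low HDM values was not tested.

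Across the 10 libraries the genes fell into loose sets by Pearson's r of log2 CPM, given as a description since all points share libraries and the same 4 groups. Clic4 and Gyk had an r of 0.958, Gyk and Eltd1 0.942, and Eya2 and Clic4 0.916. Pdgfrb and Fgl2 had 0.87, whereas Gyk and Raver2 had -0.009. Among 6225 tested genes averaging at least 20 CPM, those most like Eya2 were Cttn (0.957), Hcls1 (0.956) and Mta2 (0.954), and those most like Clic4 were Rnf214 (0.964), Rab8a (0.963) and Ly6e (0.947). Pdgfrb was most like Fgfr1op2 (0.972), Hspa14 (0.954) and Itga4 (0.954), and Fgl2 most like Npm1 (0.959), Btf3 (0.950) and Cct4 (0.940).

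Between populations, edgeR called 2.84% of all tested genes with HDM (0.693% higher and 2.15% lower in B7hi) and 6.54% with saline (2.91% higher and 3.64% lower). The pathways and families around the 10 genes held 61 other tested genes. None of the 61 was called by edgeR for HDM in either population or for the interaction. In B7low cells 13 of the 61 (21.3%) had an unadjusted p under 0.05 and the median log2 fold change was 0.34, against 9.08% and 0.03 over all tested genes. In B7hi cells 2 of the 61 had one and the median was 0.03, and for the interaction 6 had one. DESeq2 called 1 of the 61 for the interaction (Ms4a1, adjusted p = 0.044, named after its value was seen) and none for HDM in either population, and limma-voom called none.

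Of the genes listed with Eya2, 4 were tested and none was called between populations. Dach1, a nuclear cofactor that works with EYA proteins, was at 0 in both B7low saline libraries, against 14.1 ± 3.64 CPM in B7hi saline (SD, n = 2; edgeR adjusted p = 0.085). The 2 tested relatives of Clic4, Clic1 and Clic5, the 8 other genes of glycerol and triglyceride handling, the 7 other genes of PTB-linked splicing and the 10 other TNF receptor superfamily genes also gave no call. Over these 31 genes of 5 lists edgeR, DESeq2 and limma-voom called none between populations, with 1 at an unadjusted p under 0.05 with HDM (Traf1) and 8 with saline in edgeR. Ptbp1, which codes for PTB, averaged 376 ± 50.3 CPM in B7hi HDM and 314 ± 74.9 CPM in B7low HDM (SD, n = 3 each). Of the 7 other Leloir pathway genes, only Pgm1, a phosphoglucomutase, was called between populations, with HDM (43.7 ± 5.96 CPM in B7hi against 17.3 ± 5.12 CPM in B7low, log2 fold change 1.36 ± 0.35, adjusted p = 0.049 by edgeR), and that call was lost under 14 of 19 alternatives, among them without any 1 of the 6 HDM libraries or the 2 B7hi saline libraries (0.072 to 0.18).

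Among 9 other tested adhesion receptors, Gpr56 was higher in B7hi with saline (99.6 ± 22.7 CPM in B7hi against 13.6 ± 6.82 CPM in B7low, SD, n = 2 each). Its log2 fold change was 2.86 ± 0.48 (edgeR adjusted p = 0.0016), and it was called under all 19 alternatives. Gpr97 was higher with HDM (250.1 ± 38.4 CPM in B7hi against 118 ± 13.5 CPM in B7low, adjusted p = 0.040 by edgeR) and with saline (164 ± 22.3 CPM in B7hi against 59.3 ± 34.4 CPM in B7low, 0.021). Lphn2 was higher with saline (24.5 ± 2.83 CPM in B7hi against 3.42 ± 0.108 CPM in B7low, 0.024 by edgeR). The HDM call of Gpr97 was lost without any 1 of the 6 HDM or the 2 B7hi saline libraries (0.051 to 0.20), its saline call without B7hi saline replicate 1 or 2 or B7low saline replicate 1 (0.054 to 0.14), and the Lphn2 call without any 1 of the 4 saline libraries (0.079 to 0.13). The saline calls of Lphn2 (adjusted p = 0.083) and Gpr97 (0.12) were also lost in an edgeR fit of those 2 groups alone. Lphn2 was not called by limma-voom (adjusted p = 0.25), and the HDM call of Gpr97 was lost in edgeR with library size alone (0.053). In the MS4A family, Ms4a1 (CD20), a B cell gene, was lower in B7hi with HDM (log2 fold change -4.72, edgeR adjusted p = 0.0095, and 0.073 without B7hi HDM replicate 3). B cell markers summed to 8.13 to 24.7 CPM in B7hi HDM, against 652, 422 and 87.8 CPM in B7low HDM, and their part in this difference was not tested.

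Of 10 other tested genes for FGL2 receptors and clotting, 3 differed in both conditions. F2r, a thrombin receptor, was higher in B7hi with HDM (265 ± 55.3 CPM in B7hi against 88.0 ± 36.0 CPM in B7low, log2 fold change 1.57, edgeR adjusted p = 0.0072) and with saline (114 ± 19.0 CPM in B7hi against 38.3 ± 7.25 CPM in B7low, 1.57, 0.027). Fcgr2b, an inhibitory IgG receptor that binds secreted Fgl2, was lower in B7hi with HDM (24.1 ± 4.65 CPM in B7hi against 102 ± 23.5 CPM in B7low, -2.10, adjusted p = 0.0048 by edgeR) and with saline (20.5 ± 10.5 CPM in B7hi against 107 ± 59.0 CPM in B7low, -2.40, 0.0045). Plau, the urokinase plasminogen activator, was lower in B7hi with HDM (17.1 ± 15.6 CPM in B7hi against 105 ± 31.3 CPM in B7low, -2.46, adjusted p = 0.012 by edgeR) and with saline (3.72 ± 0.0878 CPM in B7hi against 132 ± 61 CPM in B7low, -5.11, 0.00062). The saline call of F2r was lost without any 1 of the 4 saline libraries (0.066 to 0.15), that of Fcgr2b without B7hi saline replicate 2 or B7low saline replicate 1 (0.075 and 0.070), and the HDM call of Plau was lost without B7hi HDM replicate 3 (0.060). With saline, F2r was also not called by limma-voom (adjusted p = 0.096) or by an edgeR fit of those 2 groups alone (0.059). Fcgr3, an activating IgG receptor, was at 60.5 to 126 CPM in all groups and was not called.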

How the data were processed

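Poly(A)+ mRNA from sorted cells was made into SmartSeq2 libraries and sequenced as paired reads of 25 nt, per the labels' protocols. The authors deposited 1 table of raw counts per gene symbol, with 1 column for each of the 10 libraries. The build mm10 and the tools TopHat2 2.0.10, Cufflinks 2.2.1 and DESeq2 appear in the submitters' processing notes without their roles. How reads were counted, and whether by strand, is not given in the sources used here. Genes that share exon bases on opposite strands, and close relatives, may therefore share reads. Jak1 shares 4 exon bases with Raver2, whereas Camta1 with Tnfrsf9 and Ccdc146 with Fgl2 overlap without a shared exon base.

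From these counts, 10533 genes passed edgeR's expression filter over the 4 groups and held 98.2 to 99.5% of each library's counts. They were fitted in R 4.3.3 with edgeR 4.0.16 (TMM, robust quasi-likelihood test, 1 mean per group, common biological coefficient of variation 0.359), two-sided, with Benjamini-Hochberg adjustment over all 10533 genes and a threshold of 0.05. An approximate SE is the log2 fold change divided by the root of the F statistic. Ratios between groups are of summed counts per scaled total, with exact conditional binomial intervals, and a group with no counts is set to 3 counts over the group. Alternatives used DESeq2 1.42.0, limma-voom (limma 3.58.1) with quality weights, other scalings and filters, a replicate block, and single libraries left out. Only the edgeR, limma-voom and DESeq2 tests with the main scaling and filter were tried on simulated data, for HDM against saline in B7low alone.

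The 10 genes, the pathway and marker lists and the tests were chosen with earlier results of these data known. From each list, up to 4 genes with the smallest p over the comparisons were eligible to be named, with partners and close relatives of the 10 genes. Coordinates come from GENCODE M21 and promoters from RefSeq, both on GRCm38, by symbol (10 of 10 matched, Gyk as Gk and Eltd1 as Adgrl4). No protein sequences were used here.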

Additional observations from a re-analysis of the deposited data

Results flagged for a closer look

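Gyk, the glycerol kinase, had its HDM libraries below saline in B7hi and above saline in B7low, and neither effect passed edgeR's test (adjusted p = 0.999 in B7hi and 0.10 in B7low). It was at 10, 21.5 and 23.3 CPM in B7hi HDM, all below the 26.5 and 26.6 CPM of B7hi saline, and at 20.3, 13 and 18.3 CPM in B7low HDM, all above the 0 CPM of both B7low saline libraries. The difference between the HDM effects was tested as an interaction in edgeR and did not pass, with an adjusted p of 0.158 (range over the alternatives 0.0026 to 0.88). No group had 4 or more libraries, so single libraries were not tested as outliers.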

How the results depend on the processing

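Counts of genes called depended on the test and the filter. For HDM in B7low the count of 1 became 19 with DESeq2, 0 with limma-voom, 0 with DESeq2 size factors, 4 with library size alone, 112 with no count filter, 3 with the filter of 5 CPM, 0 with only the 2 groups compared, and 0 without both libraries that stood apart. For HDM in B7hi the count of 1 became 55 with DESeq2, 11 with limma-voom, 89 with no count filter, 0 with only the 2 groups compared, and 5 without both libraries. For the interaction the count of 0 became 44 with DESeq2, 2 with library size alone, 143 with no count filter, 3 with the filter of 5 CPM, and 1 without both libraries. Between B7hi and B7low with HDM, the 299 genes called became 507 with DESeq2 and 548 with no count filter, and with saline the 689 became 1078 when no count filter was used and 370 from a fit of those 2 groups alone. Leaving out 1 library gave 0 (several libraries) to 13 calls (without B7low saline replicate 1) for HDM in B7low, 0 (without B7low HDM replicate 2) to 11 (without B7hi HDM replicate 3) for HDM in B7hi, 0 to 3 for the interaction, 137 (without B7low HDM replicate 1) to 368 for the populations with HDM, and 226 (without B7hi saline replicate 1) to 685 with saline. With a replicate block the counts were 2 for HDM in B7low, 6 in B7hi, 0 for the interaction, 355 between populations with HDM and 712 with saline. Whether the replicate numbers pair the samples cannot be settled from groups of 2 and 3 libraries, since deviations within a group of 2 mirror each other. Same-numbered libraries deviated together with r between -0.11 and 0.10. Of the 6 HDM libraries, 0 deviated most like the library with its own number.

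The share of calls that were higher in B7hi with saline was 44.4%, 67.9% with library size alone, 28% with limma-voom, 56.2% when low counts were kept and 27.3% from those 2 groups alone. With HDM it was 24.4%, and 36.7% with limma-voom, 14% without both libraries that stood apart, 8.76% without B7low HDM replicate 1, 8.97% without B7hi HDM replicate 2, 11.6% without B7hi HDM replicate 1, 15.4% without B7hi saline replicate 1 and 15.5% without B7low HDM replicate 3. Library size alone moved the median log2 fold change of all genes to 0.30 between populations with saline, 0.17 for HDM in B7low, -0.14 in B7hi and -0.33 for the interaction.

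Most changes of direction among the 10 genes were of log2 fold changes near 0. For HDM in B7low, Tnfrsf9 (-0.07) was 0.064 with library size alone and 0.29 with the replicate block, and without both libraries that stood apart Pdgfrb (-0.17) was 0.39 and Fgl2 (-0.39) was 0.36. In the interaction Pdgfrb (-0.01) was 0.071 with DESeq2 size factors, 0.10 with DESeq2 and 0.011 with limma-voom, and Galm (-0.51) was 0.36 without both libraries, where Gyk between populations with HDM was -0.066. Leaving out 1 library moved Tnfrsf9 between -0.50 and 0.55 for HDM in B7low, -0.40 and 1.33 in B7hi and -0.33 and 1.37 in the interaction. It moved Pdgfrb between -0.51 and 0.39, -0.42 and 0.14, and -0.58 and 0.32 in the same comparisons. It also moved Fgl2 in B7low between -0.83 and 0.37, Eltd1 in B7hi between -0.60 and 0.081, Galm in the interaction between -1.87 and 0.17, and Gyk between populations with HDM between -0.18 and 0.40. The cause was not tested.

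With no count filter, Eya2 (adjusted p = 1.3e-05), Clic4 (0.00012), Gyk (0.0030) and Eltd1 (4.0e-06) were called by edgeR for HDM in B7low. Their adjusted p-values reached 0.95 with limma-voom. Groups of 2 and 3 libraries and B7low saline totals of 652736 and 639906 counts limit what these comparisons can show: a count of 0 there allows up to 2.56 CPM.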
